A study of Mus musculus with 24 samples.

Results

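The 9 genes described here are the mouse glucocorticoid receptor gene Nr3c1, the mineralocorticoid receptor gene Nr3c2, and 7 genes of the glucocorticoid response: Fkbp5, Sgk1, Tsc22d3, Klf9, Ddit4, Zbtb16 and Hsd11b1. They were chosen by name and are 9 of the 46983 gene identifiers in the count tables; all 9 were found and all 9 passed the filter on low counts. The study measured messenger RNA by sequencing of transcript 3′ ends (QuantSeq 3′ FWD, made from 400 ng of total RNA) in 24 libraries of C57Black/6 mouse brain. Permanent middle cerebral artery occlusion (MCAO), a model of ischaemic stroke, was made under isoflurane by coagulating the artery and cutting through it, which leaves a small infarct in the parietal cortex. Tissue was taken 3 days later. The 4 groups hold 6 libraries each, lettered A to F, and each library was taken as a separate animal. They are intact cortex at 3 months (Ctrl_3M) and 18 months (Ctrl_18M), and cortex after MCAO at 3 months (MCAO_3M) and 18 months (MCAO_18M). No sham operation is described for the intact cortex, so the occlusion, the surgery and the anaesthesia cannot be told apart here. Neither the sex of the animals nor the hour of tissue collection is given in the labels used here.

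Glucocorticoids, corticosterone in the mouse, are released by the adrenal gland in stress and in a daily rhythm, and pass freely into cells. They bind the low-affinity receptor encoded by Nr3c1 and the high-affinity receptor encoded by Nr3c2, which are held in the cytoplasm by heat shock protein chaperones, move to the nucleus once bound, and act there on glucocorticoid response elements in DNA. Among the genes they induce in brain, Fkbp5 encodes an immunophilin that lowers the receptor's own affinity for hormone, and Hsd11b1 encodes the enzyme that regenerates active corticosterone inside the cell.

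Library depth ran from 3299128 to 13082872 gene counts. Levels are given as CPM, counts scaled to library size by edgeR's TMM method. Neuron markers, such as Snap25, and astrocyte markers, such as Aqp4, were present in every group; they mark brain tissue and do not tell cortex from other regions. After MCAO 8 of 12 neuron markers fell at 3 months and 9 of 12 at 18 months. All 12 microglia markers rose at both ages, as did 10 and then 11 of 12 endothelial markers and 5 and then 8 of 10 oligodendrocyte markers. Of 12 astrocyte markers 4 were higher and 2 lower at 3 months, and 3 were higher and 4 lower at 18 months. Of all genes tested 20.1% were higher and 17.3% lower at 3 months, and 23.7% were higher and 21.5% lower at 18 months. Some libraries stood apart within their group. Library A of MCAO_3M had the highest microglia marker sum of its group, 4470 CPM against 1492 to 3417 in the other 5. It was also the deepest library, with 13082872 gene counts against 4170241 to 5242521 in the other 5. Its monocyte, neutrophil, endothelial and fibroblast marker sums were the highest of the group and its neuron marker sum the lowest. Library C of MCAO_3M and library D of Ctrl_3M held choroid plexus transcripts, at 1513 and 844 CPM against at most 21.1 and 12.2 in the rest of their groups. Library F of MCAO_18M was high in haemoglobin transcripts, at 1260 CPM against 38.2 to 388 in the other 5. Library C was the next highest, at 388 CPM, and its distance from the remaining libraries is not given. Results are therefore given with and without these libraries where that changes a call.

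Promoter sequence was available from RefSeq (GRCm38.p6) for 7 of the 9 genes, in 14 windows of 250 bases immediately before an annotated start; none was used for Nr3c1 or Zbtb16. Each window was searched on both strands for 4 patterns: the palindromic response element, which is the arm AGAACA, 3 bases of any kind and the arm TGTTCT; its looser form, GNACA and TGTNC with 3 bases between them; the single arm AGAACA; and the hypoxia core ACGTG. The first 3 patterns overlap one another. The palindrome occurred in 1 of the 14 windows, that of the fifth Sgk1 start, at chr10:21993701-21993715, with its first base 189 bases before the start. It is rare, being found in 3 of all 32851 mouse windows (0.00913%), while the loose form is in 0.387%, the single arm in 16.1% and the hypoxia core in 16.6%. The other 2 windows with the palindrome belong to Acnat2 and Gm35041, which had too few counts to test. The Sgk1 window (chr10:21993640-21993889, plus strand) is shown because it holds this match; capitals mark the palindrome and a further single arm. The windows of Fkbp5 (chr17:28486150-28486399, minus strand) and Klf9 (chr19:23140976-23141225, plus strand) are shown beside it because these genes had the smallest adjusted p of the 9, one higher and one lower, after MCAO at 18 months, and neither window held any of the first 3 patterns. The hypoxia core is not marked in capitals. It matched 2 times in the Sgk1 window and 2 times in the Fkbp5 window, each on both strands of 1 stretch. The Klf9 window held 1 match, as did the Ddit4 window, which is not shown. A match is a string of letters and not a shown binding site.
Sgk1: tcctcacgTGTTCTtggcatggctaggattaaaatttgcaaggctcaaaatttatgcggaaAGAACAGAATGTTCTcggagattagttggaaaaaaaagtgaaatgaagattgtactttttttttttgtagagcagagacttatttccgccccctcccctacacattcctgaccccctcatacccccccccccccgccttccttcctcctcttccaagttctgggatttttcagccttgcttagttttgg
Fkbp5: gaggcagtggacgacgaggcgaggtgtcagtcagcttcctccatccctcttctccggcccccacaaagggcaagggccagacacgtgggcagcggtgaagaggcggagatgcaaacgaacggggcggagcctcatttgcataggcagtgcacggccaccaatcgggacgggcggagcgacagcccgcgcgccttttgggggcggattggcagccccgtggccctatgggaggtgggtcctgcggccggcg
Klf9: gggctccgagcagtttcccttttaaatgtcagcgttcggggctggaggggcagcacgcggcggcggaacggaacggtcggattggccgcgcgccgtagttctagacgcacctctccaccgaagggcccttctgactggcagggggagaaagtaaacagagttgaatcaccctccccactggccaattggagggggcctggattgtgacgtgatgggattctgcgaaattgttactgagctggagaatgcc

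The first question the design poses is what MCAO did to these genes at each age. The set did not move one way. At 3 days after the occlusion Fkbp5 and Sgk1 were higher than in intact cortex at both ages, and Ddit4 was also higher at 18 months, whereas the receptor gene Nr3c1, Tsc22d3, Klf9 and Hsd11b1 were lower at both ages and Zbtb16 was lower at 3 months. At 3 months 7 of the 9 genes passed an adjusted p of 0.05 in edgeR's quasi-likelihood test with Benjamini-Hochberg adjustment over the 14599 genes tested, 2 higher and 5 lower, where 37.3% of all genes passed, 20.1% higher and 17.3% lower. At 18 months 7 of the 9 also passed, 3 higher and 4 lower, where 45.2% of all genes passed, 23.7% higher and 21.5% lower. At 3 months none of the 9 genes had ranges that did not overlap, against 18.9% of all genes. At 18 months 4 did not overlap, 1 higher and 3 lower, against 27.0% of all genes. The median log2 change of the 9 genes was -0.35 at 3 months and -0.31 at 18 months, against -0.04 and -0.03 over all genes tested.

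The count at 3 months was the less steady one. It dropped to 4 without libraries A and C of MCAO_3M and to 4 without library D of Ctrl_3M and library C of MCAO_3M. Leaving out single libraries gave 3 to 7 genes, with 3 when library E of Ctrl_3M was left out and 4 when A, C or F of MCAO_3M was. Scaling to the spiked-in control RNAs moved the median change of all genes to -0.49 at 3 months and -0.32 at 18 months. On that scale the 5 genes called lower at 3 months remained lower and past the threshold while Fkbp5 and Sgk1 lost their call, and at 18 months 4 genes passed, all lower. Scaling to total gene counts left 3 genes called at 3 months, 2 higher and 1 lower.

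**Figure D1:**
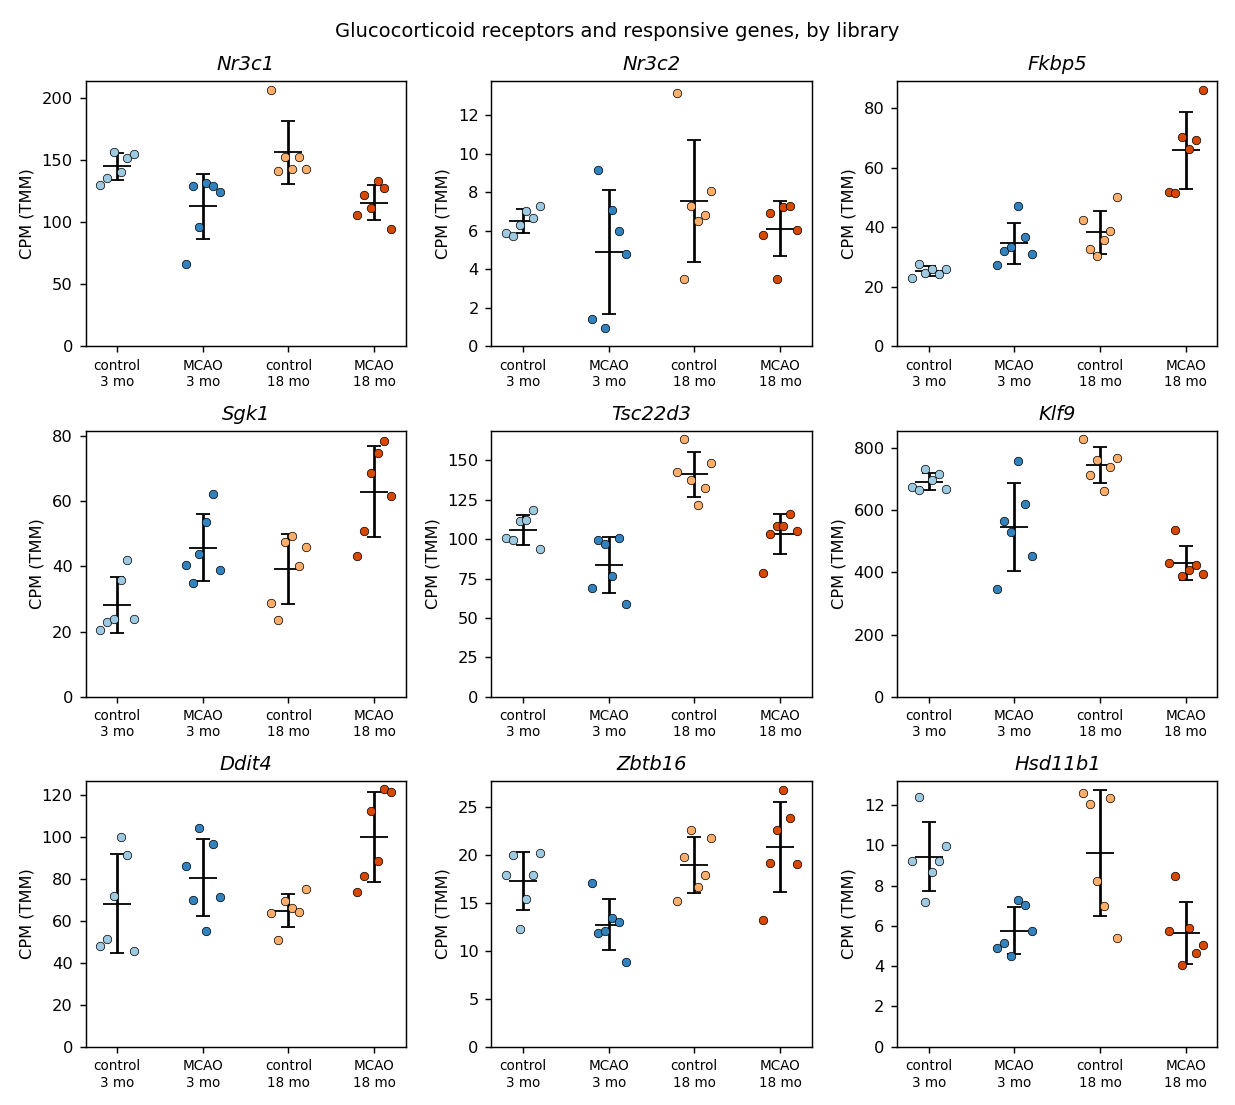
TMM-scaled CPM (vertical axis, linear from 0) of the 9 genes in each of the 24 libraries, with the group mean and SD as bars, 6 libraries a group. Fkbp5 lay between 51.4 and 85.9 in MCAO_18M, above all 18 libraries of the other groups, and Klf9 lay between 389 and 538 in MCAO_18M, below all 12 intact libraries.

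The receptor genes were the starting point. Nr3c1 (ENSMUSG00000024431, chromosome 18, 39410545 to 39519421, minus strand, GRCm38) had 130.1, 146 and 156 CPM as the lowest, median and highest library of Ctrl_3M, and 66.3, 127 and 131 in MCAO_3M. In the 18-month animals it had 141, 147 and 206 CPM in Ctrl_18M and 94.8, 116 and 133 in MCAO_18M. At 3 months 5 of 6 MCAO libraries lay below all intact ones, and at 18 months all 6 did. The log2 change was -0.37 ± 0.13 (SE) at 3 months (adjusted p = 0.0333) and -0.43 ± 0.13 at 18 months (adjusted p = 0.0093). The lowest library at 3 months was A, and without libraries A and C of MCAO_3M the change was -0.18 (adjusted p = 0.219). Without library D of Ctrl_3M and C of MCAO_3M it was -0.33 (adjusted p = 0.0932), and with DESeq2 it was -0.34 (adjusted p = 0.0506). The 3-month call held in 19 of 24 fits without 1 library, and was lost without C, E or F of Ctrl_3M or A or C of MCAO_3M. Without libraries C and F of MCAO_18M the change at 18 months was -0.36 (adjusted p = 0.0655).

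Nr3c2 (ENSMUSG00000031618, chromosome 8, 76899442 to 77245012, plus strand) encodes the receptor that also answers to aldosterone in kidney. It was counted only 4 to 73 times a library. It had 5.74, 6.5 and 7.29 CPM in Ctrl_3M and 0.944, 5.39 and 9.17 in MCAO_3M, where libraries A and C were the 2 lowest, at 1.41 and 0.944. In Ctrl_18M it had 3.48, 7.07 and 13.2 CPM, and in MCAO_18M 3.5, 6.47 and 7.27. The groups overlapped throughout. The log2 change was -0.45 ± 0.36 at 3 months (adjusted p = 0.335, 95% interval -1.19 to 0.28) and -0.31 ± 0.34 at 18 months (adjusted p = 0.487). At 3 months it was -0.99 with limma-voom (adjusted p = 0.0462) and 0.04 without libraries A and C of MCAO_3M (adjusted p = 0.928), so no direction is given for Nr3c2.

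Fkbp5 (ENSMUSG00000024222, chromosome 17, 28399094 to 28517527, minus strand) is the feedback immunophilin of the receptor complex. It had 23.1, 25.3 and 27.8 CPM as lowest, median and highest in Ctrl_3M and 27.3, 32.6 and 47.3 in MCAO_3M. At 18 months it had 30.5, 37.1 and 50.2 CPM in Ctrl_18M and 51.4, 67.8 and 85.9 in MCAO_18M. The medians increased in that order of groups: neighbouring groups overlapped up to Ctrl_18M, and MCAO_18M stood clear of it. Fkbp5 rose by 0.45 ± 0.14 on the log2 scale at 3 months (adjusted p = 0.0135), with 5 of 6 MCAO libraries above all intact ones, and by 0.78 ± 0.14 at 18 months (adjusted p = 3.7e-05), with 6 of 6 above. Without libraries C and F of MCAO_18M the change at 18 months was 0.64 (adjusted p = 0.000992). Under spike-in scaling the log2 change was 0.00 at 3 months (adjusted p = 0.991) and 0.51 at 18 months (adjusted p = 0.0706), which is 0.50 and 0.83 above the median of all genes on that scale.

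Sgk1 (ENSMUSG00000019970, chromosome 10, 21882184 to 21999903, plus strand) encodes a serum- and glucocorticoid-regulated kinase that acts on ion channels and transporters, and its promoter window is the one printed with the palindrome. It had 20.5, 23.9 and 42.0 CPM in Ctrl_3M and 34.9, 42.2 and 62.4 in MCAO_3M. In the 18-month animals it had 23.7, 43.1 and 49.5 CPM in Ctrl_18M and 43.2, 65.3 and 78.6 in MCAO_18M. All 6 MCAO libraries were above the intact median at each age, but the ranges overlapped, since 3 of 6 at 3 months and 5 of 6 at 18 months were above every intact library. Sgk1 rose by 0.69 ± 0.20 on the log2 scale at 3 months (adjusted p = 0.00841) and by 0.69 ± 0.20 at 18 months (adjusted p = 0.00567). Under spike-in scaling these were 0.19 (adjusted p = 0.595) and 0.38 (adjusted p = 0.286), which is 0.68 and 0.70 above the median of all genes.

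Tsc22d3 (ENSMUSG00000031431, chromosome X, 140539528 to 140600659, minus strand) encodes GILZ, a leucine zipper protein through which glucocorticoids dampen inflammatory signalling. It had 93.6, 106 and 118 CPM in Ctrl_3M and 58.9, 86.6 and 101 in MCAO_3M. At 18 months it had 122, 140.2 and 163 CPM in Ctrl_18M and 78.7, 107 and 116 in MCAO_18M. The ranges overlapped at 3 months and were separate at 18 months, where the highest MCAO library was below the lowest intact one. The log2 change was -0.35 ± 0.12 at 3 months (adjusted p = 0.0248) and -0.45 ± 0.12 at 18 months (adjusted p = 0.00307). The 3-month call held in 21 of 24 fits without 1 library, and was lost without E of Ctrl_3M or A or F of MCAO_3M. At both ages this classical target went the opposite way to Fkbp5 and Sgk1.

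Klf9 (ENSMUSG00000033863, chromosome 19, 23141226 to 23168134, plus strand) encodes a Krüppel-like transcription factor that is induced by glucocorticoids and thyroid hormone in neurons. It had 667, 685 and 733 CPM in Ctrl_3M and 346, 548 and 758 in MCAO_3M. In the 18-month animals it had 661, 749 and 831 CPM in Ctrl_18M and 389, 416 and 538 in MCAO_18M. MCAO_3M was the widest of the 4 groups, reaching from below to above all intact libraries of its age, whereas MCAO_18M lay wholly below Ctrl_18M. Klf9 fell by 0.34 ± 0.12 on the log2 scale at 3 months (adjusted p = 0.0307) and by 0.79 ± 0.13 at 18 months (adjusted p = 8.06e-06). Without libraries A and C of MCAO_3M the change at 3 months was -0.21 (adjusted p = 0.149), and without library D of Ctrl_3M and C of MCAO_3M it was -0.34 (adjusted p = 0.075). That call held in 19 of 24 fits without 1 library, and was lost without C or E of Ctrl_3M or A, C or F of MCAO_3M.

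Ddit4 (ENSMUSG00000020108, chromosome 10, 59949669 to 59951834, minus strand) encodes REDD1, an inhibitor of mTORC1 that is induced by glucocorticoids, hypoxia and energy stress. It had 45.5, 61.6 and 100 CPM in Ctrl_3M and 54.9, 78.6 and 104 in MCAO_3M. At 18 months it had 51.0, 65.0 and 75.1 CPM in Ctrl_18M and 73.7, 100.2 and 122 in MCAO_18M. The 3-month groups overlapped widely, while at 18 months 5 of 6 MCAO libraries were above every intact one. The log2 change was 0.24 ± 0.19 at 3 months (adjusted p = 0.331), where it was -0.28 under spike-in scaling, and 0.63 ± 0.19 at 18 months (adjusted p = 0.00717). At 18 months it was 0.50 (adjusted p = 0.0589) without libraries C and F of MCAO_18M and 0.37 (adjusted p = 0.266) under spike-in scaling.

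Zbtb16 (ENSMUSG00000066687, chromosome 9, 48654297 to 48836222, minus strand) encodes PLZF, a zinc finger repressor that is strongly induced by glucocorticoids in many human cell types. It had 12.3, 17.9 and 20.1 CPM in Ctrl_3M and 8.83, 12.5 and 17.1 in MCAO_3M. In the 18-month animals it had 15.2, 18.8 and 22.5 CPM in Ctrl_18M and 13.3, 20.9 and 26.8 in MCAO_18M. All 4 ranges overlapped their neighbours, and MCAO_3M was the lowest group. The log2 change was -0.43 ± 0.17 at 3 months (adjusted p = 0.0436) and 0.15 ± 0.16 at 18 months (adjusted p = 0.495), where it was -0.14 under spike-in scaling. The call at 3 months held in 15 of the 24 fits that leave out 1 library, with adjusted p up to 0.108. With DESeq2 (adjusted p = 0.057) and limma-voom (adjusted p = 0.0632) the call was lost. Total-count scaling (adjusted p = 0.172), no filter on low counts (0.105) and only the groups compared (0.0967) lost it too. Under spike-in scaling it held (adjusted p = 0.00223). The libraries without which it was lost were A, B, E and F of Ctrl_3M, A of Ctrl_18M and B, C, E and F of MCAO_3M. It was also lost without D of Ctrl_3M and C of MCAO_3M (-0.45, adjusted p = 0.0719) and without C and F of MCAO_18M (-0.43, adjusted p = 0.0526). The call held without A and C of MCAO_3M (-0.55, adjusted p = 0.0177), where library A had the highest level of its group.

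Hsd11b1 (ENSMUSG00000016194, chromosome 1, 193221634 to 193264075, minus strand) encodes the reductase that regenerates active hormone. It had 7.21, 9.22 and 12.4 CPM in Ctrl_3M and 4.49, 5.45 and 7.28 in MCAO_3M. At 18 months it had 5.38, 10.2 and 12.6 CPM in Ctrl_18M and 4.08, 5.41 and 8.49 in MCAO_18M. All 12 MCAO libraries lay below the intact median of their age, with the ranges just touching at 3 months and overlapping at 18 months. Hsd11b1 fell by 0.71 ± 0.21 on the log2 scale at 3 months (adjusted p = 0.0101) and by 0.79 ± 0.21 at 18 months (adjusted p = 0.00327). Without libraries A and C of MCAO_3M the change at 3 months was -0.57 (adjusted p = 0.0613). Its 3′ end is overlapped on the opposite strand by Lamb3, and since the use of strand in counting is not stated, reads of the 2 genes may not be separable; Lamb3 itself had 66 counts over all libraries against 971 for Hsd11b1.

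**Figure D2:**
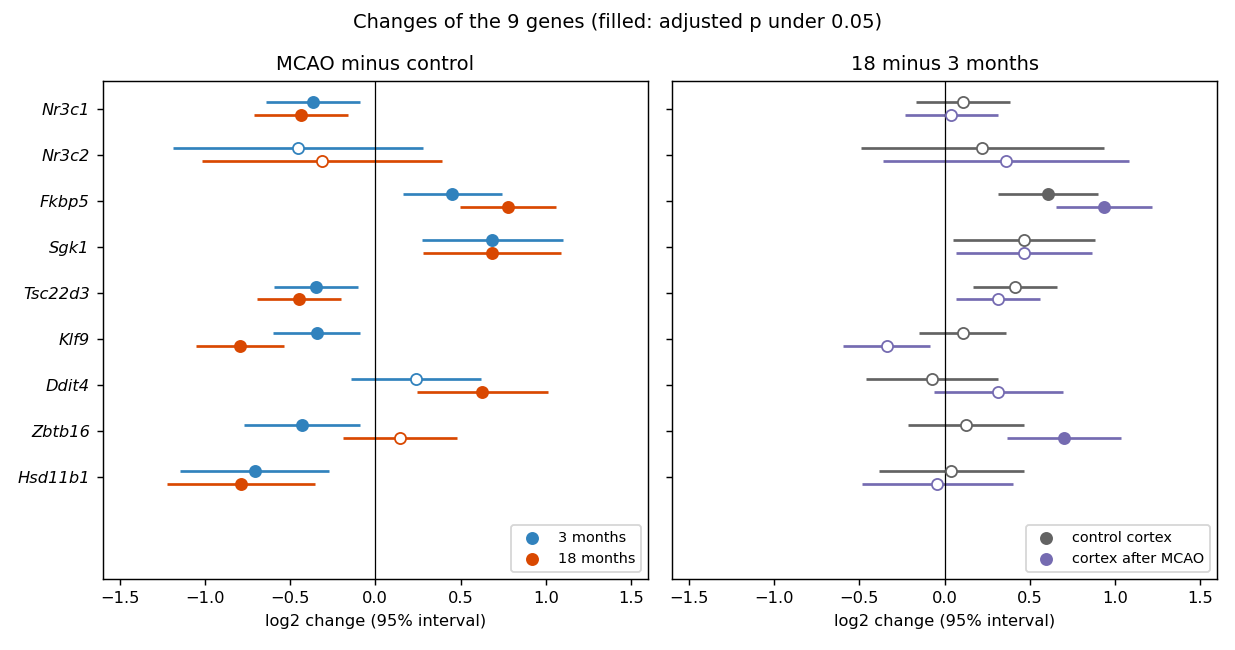
Log2 change with its 95% interval (horizontal axis) for each of the 9 genes in edgeR's fit of all 24 libraries, for MCAO minus intact cortex at each age on the left and 18 minus 3 months on the right; filled points have an adjusted p under 0.05. On the left Fkbp5 and Sgk1 lie to the right of 0 and Nr3c1, Tsc22d3, Klf9 and Hsd11b1 to its left at both ages; under spike-in scaling Ddit4 at 3 months (-0.28) and Zbtb16 at 18 months (-0.14) changed sign.

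These are whole-tissue levels, so fewer cells of a type and less RNA per cell cannot be told apart. The summed level of the 12 neuron markers ranged from 13170 to 14940 CPM in Ctrl_3M and from 8417 to 9942 in MCAO_3M. At 18 months it ranged from 12540 to 14010 in Ctrl_18M and from 5957 to 9316 in MCAO_18M. The groups did not overlap at either age, beside the lower levels of Nr3c1, Klf9 and the other genes that fell. The 10 oligodendrocyte markers summed to 1459 to 2161 CPM in Ctrl_3M, 1562 to 2363 in MCAO_3M, 1896 to 2619 in Ctrl_18M and 2327 to 4023 in MCAO_18M. The 12 endothelial markers summed to 433 to 523 CPM in Ctrl_3M, 549.6 to 1382 in MCAO_3M, 394 to 438 in Ctrl_18M and 813 to 1330 in MCAO_18M. The endothelial sums did not overlap between MCAO and intact cortex at either age, beside the higher Fkbp5 and Sgk1, while the oligodendrocyte sums did. Sums of other lists were also separate at both ages. The astrocyte marker sum was lower after MCAO, at 4152 to 5385 CPM against 5668 to 6183 in intact cortex at 3 months. At 18 months it was at 4033 to 5634 against 5974 to 7085. The 12 astrocyte markers taken singly were split, with 4 higher and 2 lower at 3 months and 3 higher and 4 lower at 18 months. Their median log2 changes were 0.05 and 0.06. Pericyte and smooth muscle markers were higher, at 337 to 450 against 247 to 327 and 288 to 442 against 219 to 271.5. Fibroblast and meningeal markers were higher, at 318.5 to 1148 against 121 to 176 and 750 to 2090 against 126 to 237. Microglia markers summed to 455.5 to 531 CPM in Ctrl_3M and 1492 to 4470 in MCAO_3M, and to 489 to 865 in Ctrl_18M and 2878 to 3448 in MCAO_18M. Reactive astrocyte genes summed to 37.98 to 45.6 CPM in Ctrl_3M and 587 to 751 in MCAO_3M, and to 68.6 to 140.5 in Ctrl_18M and 962 to 1221 in MCAO_18M. Both were thus higher in every MCAO library than in any intact one. Monocyte and macrophage markers summed to 37.5 to 58.0 CPM in Ctrl_3M and 247 to 1116 in MCAO_3M, and to 35.9 to 104 in Ctrl_18M and 675 to 1401 in MCAO_18M. Neutrophil markers summed to 3.5 to 6.33 CPM in Ctrl_3M and 17.1 to 84.3 in MCAO_3M, and to 4.45 to 9.61 in Ctrl_18M and 52.9 to 164 in MCAO_18M; Retnlg, Cxcr2 and Ltf were at 0 in both intact groups. The part of these cell types in the changes was not tested. Lymphocyte markers were near 0, with at most 11.8 CPM summed over 10 genes in any library.

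The second question is how age bears on these genes. In intact cortex Fkbp5 was the only one of the 9 past the threshold, where 0.603% of all genes passed, 0.349% higher and 0.253% lower. It rose by 0.61 ± 0.14 on the log2 scale from 3 to 18 months (adjusted p = 0.0405), and all 6 older libraries were above all 6 younger ones. Tsc22d3 was also separate between the ages, with 122 to 163 CPM at 18 months against 93.6 to 118 at 3 months. Its log2 change of 0.41 ± 0.12 had an adjusted p of 0.142 in edgeR's test and 0.0476 in DESeq2's. These 2 of 9 genes did not overlap between the ages, where 2.01% of all genes did not. Sgk1 had a log2 change of 0.47 ± 0.20 (adjusted p = 0.453), and the other 6 genes lay between -0.07 and 0.22. The Fkbp5 call held in 13 of the 24 fits without 1 library: it was lost without any 1 of the 6 Ctrl_3M libraries, without A, D, E or F of Ctrl_18M and without E of MCAO_18M, with log2 changes of 0.52 to 0.66 throughout. Without D of Ctrl_3M and C of MCAO_3M it was 0.61 (adjusted p = 0.101).

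After MCAO, 2 of the 9 genes differed between the ages, where 10.9% of all genes passed, 6.4% higher and 4.51% lower. Fkbp5 was higher at 18 months by 0.93 ± 0.14 on the log2 scale (adjusted p = 7.04e-05), and it was the 1 gene of 9 whose ranges were separate, against 3.74% of all genes. Zbtb16 was higher by 0.70 ± 0.16 (adjusted p = 0.00646), with 5 of 6 older libraries above every younger one. Both calls held in all 24 fits without 1 library, in those without the libraries that stood apart and under spike-in scaling. Klf9 had a log2 change of -0.34 ± 0.12 (adjusted p = 0.0769), and without libraries A and C of MCAO_3M it was -0.48 (adjusted p = 0.00349). Sgk1, Tsc22d3 and Ddit4 had log2 changes of 0.47, 0.31 and 0.32 with adjusted p of 0.126, 0.0943 and 0.283.

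Whether MCAO changed these genes to a different degree at the 2 ages was tested as an interaction. None of the 9 genes passed in edgeR's test, where 0.0822% of all genes did, 0.0411% in each direction, nor in DESeq2's or limma-voom's; Klf9 and Zbtb16 had an unadjusted p under 0.05. The Klf9 difference was -0.45 ± 0.18 on the log2 scale (adjusted p = 0.341, 95% interval -0.81 to -0.09), the older animals having the lower value. Without libraries A and C of MCAO_3M it was -0.58 (adjusted p = 0.0475). For Zbtb16 the difference was 0.57 ± 0.23 (adjusted p = 0.354, interval 0.10 to 1.05). Fkbp5 differed by 0.33 ± 0.20 (adjusted p = 0.587, interval -0.08 to 0.73), so its change of 0.45 at 3 months and of 0.78 at 18 months were not shown to differ. Sgk1 differed by 0.00 ± 0.24 (interval -0.50 to 0.50). The MCAO and the age comparisons share their libraries, so their values are set side by side only.

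Other genes known to be induced by glucocorticoids were higher more often than lower after MCAO, except at 3 months under spike-in scaling. Of 25 such genes 22 had enough counts to test. After MCAO 9 were higher and 1 lower at 3 months, and 12 were higher and 3 lower at 18 months, with median log2 changes of 0.26 and 0.59. Of all genes 20.1% were higher and 17.3% lower at 3 months, and 23.7% were higher and 21.5% lower at 18 months, which are also the shares to read beside the lists that follow. Under spike-in scaling, an alternative added after the data were seen, the split was 5 higher and 6 lower at 3 months and 7 higher and 4 lower at 18 months. Without libraries A and C of MCAO_3M it was 8 higher and 0 lower at 3 months, and without C and F of MCAO_18M it was 9 higher and 2 lower at 18 months. Without D of Ctrl_3M and C of MCAO_3M it was 9 higher and 0 lower at 3 months. Many of these genes also answer to cytokines and hypoxia.

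Among those that rose, Mt2, a metallothionein, rose by 1.11 ± 0.14 on the log2 scale at 3 months (adjusted p = 3.13e-07) and by 1.54 ± 0.14 at 18 months (adjusted p = 7.79e-10). Cebpd, a transcription factor of the acute-phase response, rose by 2.59 ± 0.29 (adjusted p = 6.22e-08) and by 2.92 ± 0.27 (adjusted p = 1.34e-09). Angptl4, a secreted inhibitor of lipoprotein lipase, rose by 3.72 ± 0.44 and by 3.66 ± 0.42. Lcn2, an acute-phase lipocalin, had no count in any Ctrl_3M library and a mean of 5.33 CPM in MCAO_3M. Nfkbia, the inhibitor of NF-kappaB, rose by 0.92 ± 0.16 (adjusted p = 4.08e-05) and by 1.23 ± 0.16 (adjusted p = 3.54e-07). The p21 gene Cdkn1a rose by 1.35 ± 0.20 and by 1.57 ± 0.20.

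The genes of this list that fell were few. Dusp1, a phosphatase of MAP kinases, fell by 1.04 ± 0.32 on the log2 scale at 3 months (adjusted p = 0.0139) and by 0.98 ± 0.32 at 18 months (adjusted p = 0.0157). The 3-month call of Dusp1 was lost without libraries A and C of MCAO_3M and without D of Ctrl_3M and C of MCAO_3M. With only the groups compared it was lost as well. Per1, a clock gene with a glucocorticoid response element, had a log2 change of -0.25 ± 0.20 at 3 months (adjusted p = 0.34) and fell by 0.60 ± 0.20 at 18 months (adjusted p = 0.0131). Glul, glutamine synthetase of astrocytes, fell by 0.24 ± 0.10 at 18 months (adjusted p = 0.0449). Errfi1, a feedback inhibitor of the EGF receptor, had a log2 change of 0.24 ± 0.16 at 3 months and rose by 0.66 ± 0.15 at 18 months (adjusted p = 0.000848).

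Plin4, a lipid droplet coat protein, was the 1 gene of the 22 called between the ages in intact cortex. Of all genes 0.603% were called there. With a filter on a mean of at least 5 CPM, 0 of 17 genes of the list were called. The mean of Plin4 was 1.19 CPM in Ctrl_3M and 10.7 in Ctrl_18M, a log2 change of 3.15 ± 0.48 (adjusted p = 0.000799). Its Ctrl_18M libraries ran from 2.46 to 22.5 CPM. After MCAO its means were 1.25 and 5.8 CPM at the 2 ages. In cortex after MCAO 5 of the 22 genes were higher at 18 months and 0 lower, where 6.4% of all genes were higher and 4.51% lower: Plin4 by 2.21 ± 0.47, Cebpd by 1.11 ± 0.24, Nfkbia by 0.60 ± 0.16, Mt2 by 0.52 ± 0.14 and Errfi1 by 0.51 ± 0.15. Without libraries C and F of MCAO_18M the count was 2.

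**Figure D3:**
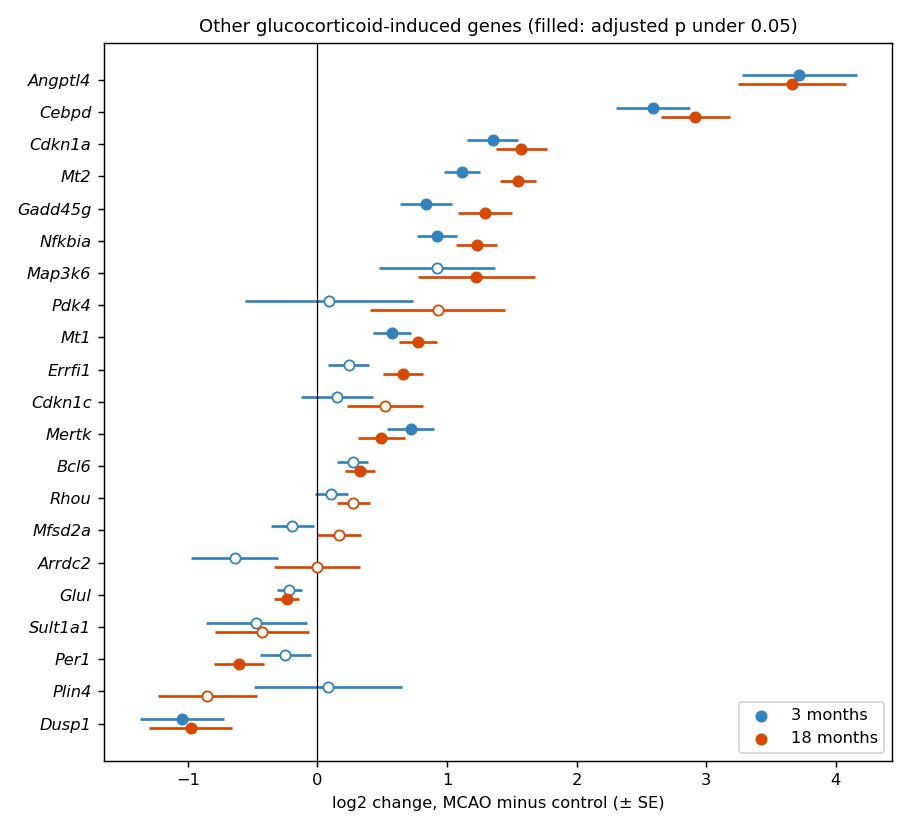
Log2 change with its SE (horizontal axis) after MCAO at 3 months and at 18 months for 21 of the 22 tested other glucocorticoid-induced genes, ordered by the change at 18 months; filled points have an adjusted p under 0.05. Lcn2, with no count in Ctrl_3M, is left out; Angptl4 and Cebpd lie furthest right and Dusp1 furthest left, and under spike-in scaling the split of called genes was 5 higher and 6 lower at 3 months.

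Chaperones hold the receptor in its hormone-binding state. Counts for this list and those that follow are on the TMM scale only. Of 15 chaperones and immunophilins 1 was higher and 4 were lower at 3 months, and 1 was higher and 5 were lower at 18 months, with medians of -0.07 and -0.26, where 17.3% and 21.5% of all genes were lower. The HSP90 genes Hsp90aa1 and Hsp90ab1 had log2 changes of -0.07 ± 0.10 and 0.04 ± 0.12 at 3 months and of -0.11 ± 0.10 and 0.06 ± 0.12 at 18 months, none past the threshold. The constitutive HSP70 gene Hspa8 had a log2 change of -0.08 ± 0.15 at 3 months and fell by 0.36 ± 0.15 at 18 months (adjusted p = 0.0465). The inducible HSP70 gene Hspa1a rose by 0.63 ± 0.23 (adjusted p = 0.0351) and by 0.92 ± 0.23 (adjusted p = 0.00149). The co-chaperone Dnaja1 fell by 0.65 ± 0.13 and by 0.49 ± 0.13, and Ppp5c, a phosphatase of the receptor complex, fell by 0.50 ± 0.12 and by 0.49 ± 0.12. Hspa4 fell by 0.52 ± 0.11 and by 0.30 ± 0.11, and the immunophilin Ppid fell by 0.33 ± 0.10 and by 0.26 ± 0.10.

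Of 12 receptor coregulators 1 was higher and 4 were lower at 3 months, and 1 was higher and 3 were lower at 18 months, where 17.3% and 21.5% of all genes were lower. The coactivator Ncoa3 rose by 0.38 ± 0.12 and by 0.37 ± 0.12, while Ncoa2 fell by 0.46 ± 0.14 and by 0.35 ± 0.14. Ncoa1 had a log2 change of -0.34 ± 0.18 at 3 months (adjusted p = 0.129) and fell by 0.45 ± 0.18 at 18 months (adjusted p = 0.0365). At 3 months the acetyltransferase gene Crebbp fell by 0.29 ± 0.08, and the Mediator subunit genes Med1 and Med14 fell by 0.47 ± 0.17 and 0.27 ± 0.10; Med14 fell by 0.29 ± 0.10 at 18 months.

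Of 11 genes of steroid metabolism and transport 6 were tested, with 4 higher and 0 lower at 3 months and 4 higher and 1 lower at 18 months. Hsd11b2, which inactivates corticosterone, had no count in either intact group and 6 and 2 counts in all libraries of MCAO_3M and MCAO_18M. H6pd, which makes the cofactor of the Hsd11b1 enzyme, rose by 0.68 ± 0.22 on the log2 scale at 3 months (adjusted p = 0.0188) and by 1.36 ± 0.22 at 18 months (adjusted p = 1.1e-05), in contrast to Hsd11b1 itself. The drug and steroid exporters Abcb1a and Abcb1b rose by 0.39 ± 0.15 and 1.32 ± 0.19 at 3 months and by 0.93 ± 0.15 and 1.10 ± 0.19 at 18 months. Tspo, a mitochondrial protein that is also a marker of activated microglia, rose by 3.46 ± 0.28 and by 3.41 ± 0.27. Cyp11a1, which starts steroid synthesis, had a log2 change of -0.43 ± 0.31 at 3 months (adjusted p = 0.283) and fell by 1.23 ± 0.35 at 18 months (adjusted p = 0.00532).

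Of 7 genes of the stress axis 4 could be tested and 2 fell at each age. Crh, the releasing hormone that cortical interneurons also make, fell by 0.86 ± 0.20 at 3 months (adjusted p = 0.00113) and by 0.76 ± 0.20 at 18 months (adjusted p = 0.00224). Its receptor gene Crhr1 fell by 1.21 ± 0.16 (adjusted p = 1.25e-06) and by 1.23 ± 0.17 (adjusted p = 8.99e-07). The receptor gene Crhr2 had too few counts to test.

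Close relatives of the 9 genes were read beside them. Of 16 paralogues 13 were tested, with 0 higher and 5 lower at 3 months and 3 higher and 5 lower at 18 months, where 20.1% and 23.7% of all genes were higher and 17.3% and 21.5% lower. The progesterone receptor gene Pgr, which belongs to the same receptor subfamily as Nr3c1, fell by 0.46 ± 0.13 at 3 months (adjusted p = 0.00675) and by 0.72 ± 0.13 at 18 months (adjusted p = 4.24e-05). The estrogen receptor gene Esr1 had a log2 change of 0.76 ± 0.35 at 3 months (adjusted p = 0.0899) and rose by 1.22 ± 0.37 at 18 months (adjusted p = 0.00898). Ddit4l, the relative of Ddit4, fell by 1.05 ± 0.24 (adjusted p = 0.00123) and by 1.72 ± 0.25 (adjusted p = 2.46e-06), whereas Ddit4 rose at 18 months. Klf13 fell by 0.35 ± 0.10 and by 0.33 ± 0.10, as Klf9 did. The Sgk1 relative Sgk3 had a log2 change of 0.15 ± 0.15 at 3 months and rose by 0.51 ± 0.15 at 18 months (adjusted p = 0.00583).

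Cytokine genes that glucocorticoids repress were higher in the same tissue: of 10 listed 7 were tested, and 6 rose at each age. Il1b rose by 1.79 ± 0.46 and by 2.98 ± 0.44 on the log2 scale, and the adhesion molecule gene Icam1 by 2.92 ± 0.41 and by 3.03 ± 0.39. Il6 and Tnf had too few counts to test. Ddit4 has other inducers, so 2 further lists were read beside it. Of 13 tested hypoxia-inducible genes 2 were higher and 2 lower at 3 months, and 4 were higher and 2 lower at 18 months, where 20.1% and 23.7% of all genes were higher and 17.3% and 21.5% lower. Hk2 rose by 2.67 ± 0.21 and by 2.76 ± 0.21 and Adm by 1.00 ± 0.26 and by 1.27 ± 0.25. Vegfa fell by 0.64 ± 0.20 at 3 months (adjusted p = 0.013) and had a log2 change of -0.41 ± 0.20 at 18 months (adjusted p = 0.0869). Bnip3 fell by 0.33 ± 0.11 and by 0.58 ± 0.11. Of 9 integrated stress response genes 4 were higher and 1 lower at each age, with Atf3 higher by 3.51 ± 0.45 and by 3.90 ± 0.40, Ddit3 at 0.16 ± 0.15 and 0.22 ± 0.15 and not past the threshold, and Trib3 higher by 2.34 ± 0.49 and by 2.18 ± 0.45.

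How the genes varied between animals of the same group was then examined. Each library's log2 CPM was taken as a deviation from its group mean, over 24 libraries, and all 36 pairs of the 9 genes were compared with permutations within groups. None of the 36 pairs had an adjusted p under 0.05 by Pearson's r, 3 did by Spearman's rho, and 6 had an unadjusted p under 0.05 by Pearson's r. Sgk1 and Ddit4 varied together, with r = 0.63 (permutation p = 0.00173, adjusted p = 0.0518) and rho = 0.66 (permutation p = 0.00157, adjusted p = 0.0283), and with r = 0.56 without the 2 libraries farthest from the median of Sgk1. Within the groups their r was 0.87 in Ctrl_3M, 0.13 in MCAO_3M, 0.84 in Ctrl_18M and 0.73 in MCAO_18M.

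The receptor genes Nr3c1 and Nr3c2 also varied together, with r = 0.76 (permutation p = 0.00288, adjusted p = 0.0518) and rho = 0.86 (permutation p = 8e-05, adjusted p = 0.00288). Without the 2 farthest libraries r was 0.68, and without libraries A and C of MCAO_3M it was 0.61. Within the groups it ran from 0.43 to 0.82. High r was common for both genes and not particular to this pair. Among 11103 genes with a mean of at least 5 CPM, the gene at rank 1526 still had r = 0.67 with Nr3c1. For Nr3c2 the gene at rank 1695 had r = 0.61. Ddit4 and Hsd11b1 varied in opposite directions, with r = -0.50 (permutation p = 0.00475, adjusted p = 0.057) and rho = -0.55 (permutation p = 0.00284, adjusted p = 0.0341), r = -0.49 without the 2 farthest libraries and between -0.72 and -0.48 in each group, but with r = 0.14 under spike-in scaling. On that scale all 36 pairs had a positive r, and 29 passed the threshold. Fkbp5 and Sgk1, the pair that rose at both ages, had r = 0.36 (permutation p = 0.0941, adjusted p = 0.375) and rho = 0.34 (permutation p = 0.113, adjusted p = 0.46), with r = 0.37 without the 2 farthest libraries.

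Over 11103 genes with a mean of at least 5 CPM, the genes most like each of the 9 in this within-group variation were then listed, as a description over 24 libraries that share depth and scaling. Nfkbia was the gene most like Sgk1 (r = 0.83), and stood between 0.70 and 0.91 in each of the 4 groups. Per1 was the gene most like Ddit4 (r = 0.76), between 0.45 and 0.92 in the groups, although Per1 fell at 18 months while Ddit4 rose. Both are among the 22 other glucocorticoid-induced genes. The rest of that list varied widely, with r down to -0.13 (Plin4) for Sgk1 and down to -0.18 (Errfi1) for Ddit4. None of the 22 was among the 3 nearest genes of any other of the 9. The next for Sgk1 were Xrn2 and Scaf11, and for Ddit4 Havcr2 and Snrk. For the other genes the 3 nearest were Ubl3, Ash1l and Atf2 for Nr3c1 (r up to 0.94), Ice1, Wdr11 and Dnal1 for Nr3c2 (up to 0.94), and Pfkm, Ppp3ca and Gpr158 for Klf9 (up to 0.91). They were Sptan1, Hbb-bs and Inpp4b for Fkbp5 (up to 0.73), Cobll1, Dcbld2 and Mycbp for Tsc22d3 (up to 0.74), Alms1, Tubgcp4 and Fastkd5 for Zbtb16 (up to 0.73) and Morc2b, Agpat5 and Trim67 for Hsd11b1 (up to 0.71). Hbb-bs is a haemoglobin gene. Library F of MCAO_18M, which stood apart for haemoglobin, also had the highest Fkbp5 level of its group, at 85.9 CPM.

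**Figure D4:**
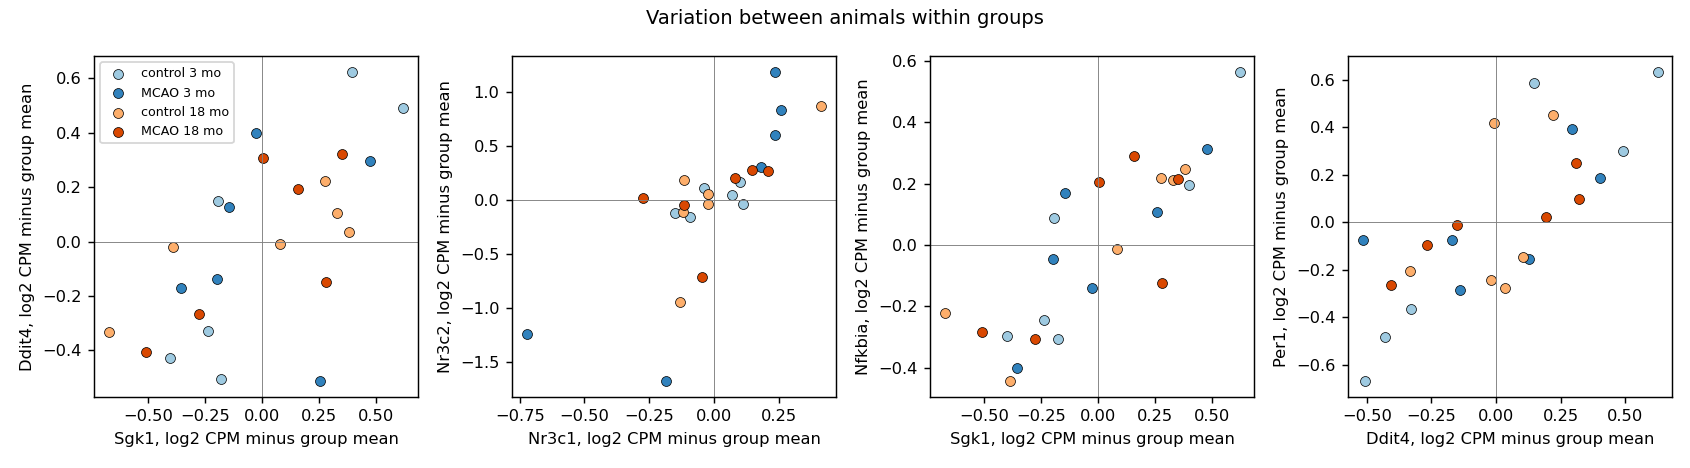
Each point is 1 of the 24 libraries, plotted as log2 CPM minus its group mean on both axes, for Sgk1 with Ddit4, Nr3c1 with Nr3c2, Sgk1 with Nfkbia and Ddit4 with Per1; colours give the group. The points rise together in all 4 panels (r = 0.63, 0.76, 0.83 and 0.76), and in the second panel the 2 lowest Nr3c2 values, -1.24 and -1.68, are MCAO_3M libraries.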

How the data were processed

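Whole-number read counts per Ensembl gene were deposited by the authors for each of the 24 libraries, trimmed with Trimmomatic and counted with HTSeq on GRCm38, per the submitters' processing notes; DESeq2 is also named there, and the deposited normalized tables were not used here. The aligner, the annotation, the versions and the use of strand were not stated in the labels or notes used here. Of 46983 gene identifiers 46488 matched a symbol. The 5 summary lines and 92 spike-in entries stayed out of library sizes. Reads in no feature made up 25.7 to 34.5%, ambiguous reads 0.464 to 0.581% and spike-ins 4.43 to 10.5%. No 2 libraries of a group agreed within counting noise (chi-square per degree of freedom at least 3.19 over 60 pairs).

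Counts were filtered (filterByExpr, minimum count 10), leaving 14599 genes tested and 32384 not, scaled by TMM and fitted with edgeR 4.0.16 (robust quasi-likelihood F-test, two-sided, R 4.3.3) as 1 model of the 4 groups, with Benjamini-Hochberg adjustment over all genes tested and a threshold of 0.05. The common biological coefficient of variation was 0.207. The scripts were tested on simulated counts. Levels are TMM-scaled CPM, which are not compared between genes; an error after a log2 change is its standard error. The labels give 6 lettered libraries a group, and each was taken as a separate animal. Alternatives were DESeq2 1.42.0, limma-voom 3.58.1, other scalings and filters, and left-out libraries. Correlations used log2 CPM (prior count 2) and 100000 permutations within groups. Coordinates are of GENCODE M21 and promoters of RefSeq.

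The 9 genes and the lists were chosen with earlier results of these data known. The text names the 9 genes throughout, the first 3 tested or listed genes of each described list and up to 4 of its called genes with the smallest p in each direction, and the 3 genes most like each of the 9. A gene that this rule names is not reported here. The list of 25 other glucocorticoid-induced genes, like the other lists, is from general knowledge of the pathway.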

Additional observations from a re-analysis of the deposited data

Results flagged for a closer look

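Of the 36 sets of 6 libraries formed by the 9 genes and 4 groups, 3 held a library far from the other 5, measured as its gap to the nearest library over the whole range; chance alone gives about 1 in 20. Nr3c1 in library A of Ctrl_18M had 206.5 CPM, with a gap of 0.828 of the range; without this library the change of Nr3c1 at 18 months was -0.32 (adjusted p = 0.0464). Klf9 in library B of MCAO_18M had 537.8 CPM, the highest of its group, with a gap of 0.72 of the range; without it Klf9 differed between ages after MCAO by -0.41 (adjusted p = 0.0339), which did not pass with it. Tsc22d3 in library A of MCAO_18M had 78.66 CPM, the lowest of its group, with a gap of 0.65 of the range; without it the change of Tsc22d3 at 18 months was -0.38 (adjusted p = 0.0105), and Tsc22d3 differed between ages after MCAO by 0.38 (adjusted p = 0.0392), which did not pass with it. The causes were not tested.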

How the results depend on the processing

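Of the values of the 9 genes under all alternatives, 1478 kept their direction and side of the threshold, 72 lost it, 10 gained it and 51 changed sign; causes were not tested. The 7 calls after MCAO at 3 months became 3 with total-count scaling, 3 with no filter on low counts, 3 with only the groups compared, and 4 without libraries A and C of MCAO_3M or without D of Ctrl_3M and C of MCAO_3M; leaving out 1 library gave 3 to 7. The 7 calls at 18 months became 4 with spike-in scaling. The 1 call between ages in intact cortex became 0 with total-count scaling, spike-in scaling or limma-voom and without D of Ctrl_3M and C of MCAO_3M, and 2 with DESeq2 or only the groups compared; leaving out 1 library gave 0 to 1. The 0 calls for the difference between ages became 1 without A and C of MCAO_3M. The 0 related pairs became 3 with Spearman's rho, 29 with spike-in scaling and 1 without A and C of MCAO_3M.

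Sign changes of log2 values were as follows. With spike-in scaling Ddit4 was -0.28 after MCAO at 3 months, Zbtb16 -0.14 at 18 months and Hsd11b1 0.14 between ages after MCAO, and the difference between ages was 0.086 for Nr3c1, 0.20 for Sgk1, 0.11 for Tsc22d3 and 0.059 for Hsd11b1. Without A and C of MCAO_3M Nr3c2 was 0.039 at 3 months, Nr3c1 -0.15 and Nr3c2 -0.13 between ages after MCAO, and the difference was -0.35 for Nr3c2. Without D of Ctrl_3M and C of MCAO_3M Ddit4 was 0.073 between ages in intact cortex, Nr3c1 -0.00081 between ages after MCAO and the difference -0.080 for Nr3c2. Without C and F of MCAO_18M Hsd11b1 was 0.091 between ages after MCAO, and the difference was 0.0087 for Nr3c1 and 0.053 for Hsd11b1. The Sgk1 difference was 0.0017 with a mean of at least 5 CPM and 0.027 with limma-voom. Leaving out 1 library, values between ages in intact cortex ran from -0.015 to 0.37 for Nr3c2, -0.17 to 0.073 for Ddit4 and -0.051 to 0.16 for Hsd11b1; after MCAO from -0.078 to 0.091 for Nr3c1 and -0.19 to 0.037 for Hsd11b1. The difference ran from -0.19 to 0.012 for Nr3c1, -0.10 to 0.41 for Nr3c2, -0.15 to 0.11 for Sgk1 and -0.23 to 0.0071 for Hsd11b1.

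Library letters were not taken to pair animals, since the labels do not say that they do. In no comparison did all 6 letters have a correlation over 0.1, and the correlations ran from -0.296 to 0.307. MCAO_3M with MCAO_18M came closest, with 4 of 6 letters over 0.1, none negative, and 3 libraries most like their own letter. Ctrl_3M with MCAO_18M had 1 letter over 0.1, none negative (0.0131 to 0.23), and also 3 libraries most like their own letter. With the letter as replicate block Zbtb16 after MCAO at 3 months was -0.42 (adjusted p = 0.0716) and Sgk1 between ages after MCAO 0.45 (adjusted p = 0.0169); no other call of the 9 genes changed.

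Over all genes tested, 88 differed between ages in intact cortex, but 39 with spike-in scaling, 177 with DESeq2, 185 without A and C of MCAO_3M and 226 with only the groups compared. After MCAO 1593 differed between ages, but 671 with spike-in scaling, 678 without C and F of MCAO_18M and 607 with only the groups compared. The difference was called for 12 genes, but for 3 with spike-in scaling, 117 with DESeq2, 135 without A and C of MCAO_3M and 1 without D of Ctrl_3M and C of MCAO_3M. At 3 months 2930 genes were higher and 2521 lower after MCAO, against 1411 and 6178 with spike-in scaling and 3729 and 1203 with total-count scaling; at 18 months 3463 and 3143, against 2007 and 4119 and 4143 and 2134. Nr3c2, with 4 to 73 counts a library, has the fewest counts of the 9 genes.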
